A study of Homo sapiens with 8 samples.

Results

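The proteins described here are 7 partners of LARP6, a La-related RNA-binding protein that binds a stem-loop in fibrillar collagen messages. They were chosen by name, as cytoskeletal, adaptor, isomerase, helicase and kinase proteins described as binding or regulating LARP6. Earlier results of these data were known when they were chosen. All 7 have exactly 1 transcript each among the 12109 transcripts of the authors' deposited table. The cells were human hepatic stellate cells, labelled as a cell line without a line name, and grown in serum-containing medium. The knockdown cells are labelled LARP6 kd and received the silencing RNA dsiLARP6, and the control cells are labelled WT and received dsi-control. RNA-seq and ribosome profiling, in which the short RNA stretches shielded by ribosomes from nuclease digestion are sequenced, were each carried out on 2 libraries per condition.

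In stellate cells, the liver cells that make scar collagen, LARP6 holds collagen messages ready for coordinated translation at the endoplasmic reticulum. Its described partners act at different steps. Vimentin filaments (VIM) and non-muscle myosin filaments (MYH10) associate with collagen messages through LARP6. The WD-repeat adaptor STRAP and the RNA helicase DHX9 are recruited to the message by LARP6, the prolyl isomerase FKBP3 is described as protecting LARP6 from degradation, and the kinases AKT1 and MTOR phosphorylate it. The question asked of each partner is whether its own message was translated with a different efficiency once LARP6 was depleted. Translation efficiency is the level of footprints relative to the level of RNA, so a higher value can come from more footprints or from less RNA, and these cannot be told apart here.

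Values for single libraries are not part of the table, so replicate spread cannot be shown and the precision of each value rests on the authors' p-values. In the authors' deposited table the efficiency of LARP6 itself differed by 0.07 on the log2 scale, with an adjusted p of 0.981, which is no check of the knockdown, since LARP6 abundance was not analysed here. Of 17 stellate cell markers 13 were measured, against 2 of 11 hepatocyte, 2 of 8 endothelial, 2 of 9 leukocyte and 3 of 7 epithelial markers. Among the 4 stellate markers without a row were LRAT and desmin. The collagen messages that LARP6 is described to bind were lower in knockdown cells. In the authors' deposited table the log2 changes were −0.57 for COL1A1, −0.42 for COL1A2 and −0.82 for COL3A1, with adjusted p-values of 2.32e-11, 3.98e-05 and 3.23e-23 in that order. Of the 13 measured stellate markers, these 3 collagens and 4 others were called lower and 0 higher in the authors' deposited table. Over all transcripts, 1.12% were called lower and 1.07% higher, so the lower values of stellate markers were not confined to the collagens.

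The first 20 bases of the transcript behind each partner are shown because mTOR, a partner itself, is known for controlling messages that begin with a terminal oligopyrimidine (TOP) element, a C followed by a run of pyrimidines. They are from GENCODE release 29 on GRCh38, 5′ to 3′ on the sense strand, and capitals mark a run of at least 5 pyrimidines that opens with C at base 1 or 2.
VIM: gCCTCTCCaaaggctgcaga
MYH10: agcagtgctaaaggagcccg
STRAP: CTTCCTgccgatgccggtgt
FKBP3: gccccgccctagggggcggg
DHX9: gcgagttgctgtgcgtttct
AKT1: ggatgcggagcggcgggcgc
MTOR: ggggcctgaagcggcggtac
VIM holds a run of 7 pyrimidines from base 2, and STRAP a run of 6 from base 1. The other 5 transcripts have no such run at that place. Of the 11581 matched transcripts of the table, 572 (4.94%) have one. The annotated start is not a measured start in these cells, and a match is a description of these letters only.

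VIM was the single partner called, with a higher translation efficiency in knockdown cells. VIM encodes vimentin, the main intermediate filament protein of mesenchymal cells (chromosome 10, 17228259 to 17237592, plus strand, GRCh38). Its log2 efficiency was −0.17 in knockdown cells in the authors' deposited table, against a derived value of −0.57 in control cells. On a linear scale, where the typical transcript lies near 1, this is 0.889 in knockdown cells against 0.674 in control cells. In the authors' deposited table this rise of 0.40, or 1.32-fold, came with an adjusted p of 0.000144. The p-values of the 2 methods were 1.01e-06 and 6.12e-08 in the authors' deposited table, and both gave a log2 change of 0.40. Vimentin thus ranked 84 by p-value among the 12109 transcripts.

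The size of the VIM change was common among the listed values. In the authors' deposited table, 42.3% of all transcripts, called or not, had a listed log2 change at least as large in either direction. Listed values include the error of each estimate, so this share does not count true changes. Of the 1148 transcripts whose change lay within 0.05 of that size, 10 (0.871%) were called. Called transcripts in the authors' deposited table had a median absolute change of 0.88 on the log2 scale, and 6 of the 266, VIM among them, changed by no more than VIM did. VIM therefore stood apart by its p-value and not by the size of its change.

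Among the other 6 partners, 0 were called in the authors' deposited table, where 2.20% of all transcripts were called (1.07% higher and 1.12% lower in knockdown cells). The adjusted p-values that the authors' deposited table gives them ran between 0.754 and 0.953. At an unadjusted p under 0.05, which 10.3% of all transcripts reached, VIM was again the single partner in the authors' deposited table. A p that misses the threshold does not show that the efficiency of these 6 messages stayed the same.

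**Figure D1:**
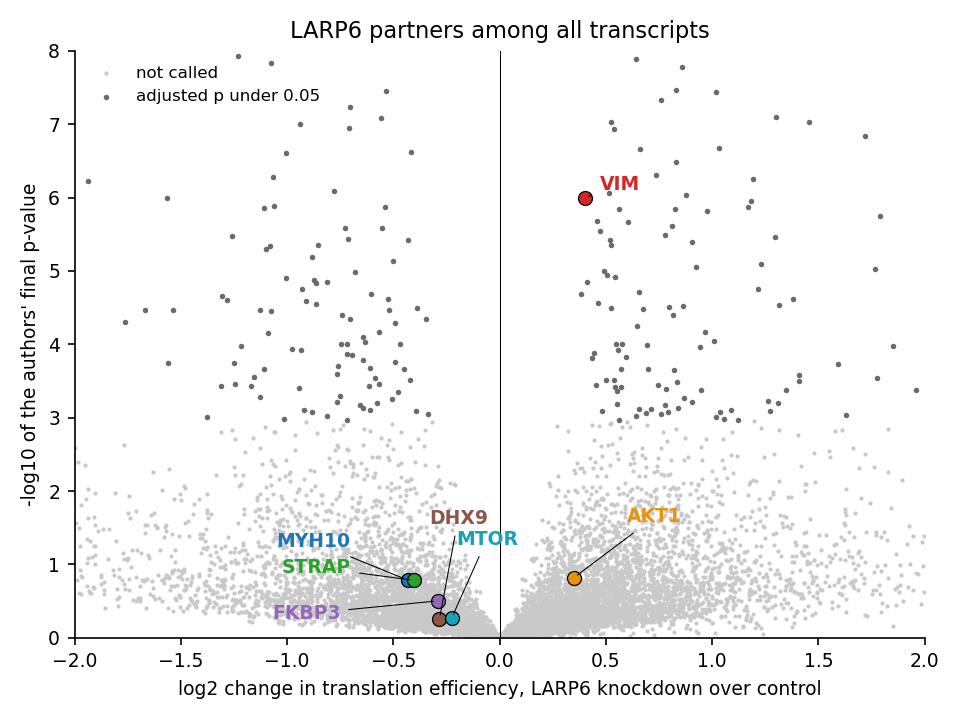
Log2 change in translation efficiency in knockdown over control cells (x axis) against −log10 of the authors' final p-value (y axis) for all transcripts within the axes, with 215 lying outside. Dark points have an adjusted p under 0.05. VIM sits among the called transcripts with a log2 change of 0.40, and the other 6 partners lie low in the plot among the transcripts that were not called.

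MYH10, the heavy chain of non-muscle myosin IIB (chromosome 17, 8474205 to 8630761, minus strand), had the value farthest from 0 of the 7. Its log2 efficiency was −1.93 in knockdown cells in the authors' deposited table, against a derived −1.50 in control cells. For the change of −0.43, the authors' deposited table gives an unadjusted p of 0.163 and an adjusted p of 0.766. A change slightly larger than that of vimentin, in the other direction, thus did not pass. Its relative MYH9, the heavy chain of non-muscle myosin IIA, is listed in the authors' deposited table with 0.13 and an adjusted p of 0.831.

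STRAP, the adaptor that is also known as an inhibitor of TGF-beta receptor signalling and as a partner of the SMN complex (chromosome 12, 15882395 to 15903478, plus strand), had a log2 efficiency of −0.70 in knockdown cells in the authors' deposited table. The derived control value was −0.30. Its change in the authors' deposited table, −0.40 on the log2 scale with an adjusted p of 0.768, was of the size of the vimentin change and had the opposite sign.

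FKBP3, a nuclear and cytoplasmic prolyl isomerase of the FK506-binding family (chromosome 14, 45115600 to 45134529, minus strand), had the highest efficiency of the 7. Its log2 efficiency was 1.08 in knockdown cells in the authors' deposited table, against a derived 1.36 in control cells. The change that the authors' deposited table lists for FKBP3 was −0.29, with an adjusted p of 0.881. FKBP3 overlaps PRPF39 on the opposite strand, which the authors' deposited table lists with −0.30 and an adjusted p of 0.969. No source used here says whether counting used the strand, so reads of this pair may not be separable.

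DHX9, also called RNA helicase A, unwinds structured RNA (chromosome 1, 182839369 to 182887751, plus strand) and had the lowest efficiency of the 7. Its log2 efficiency was −2.94 in knockdown cells in the authors' deposited table, against a derived −2.65 in control cells. The change that the authors' deposited table lists for DHX9 was −0.28, with an adjusted p of 0.953. A processed pseudogene, DHX9P1, has its own row in the authors' deposited table, with −0.31 on the log2 scale and an adjusted p of 0.976. No source used here says how reads shared by such copies were counted, so the DHX9 values are uncertain.

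The kinases had changes of opposite sign, and neither was called. AKT1 (chromosome 14, 104769371 to 104795555, minus strand), a kinase of growth factor signalling, had a log2 efficiency of −0.96 in knockdown cells in the authors' deposited table, against a derived −1.31 in control cells. For its change of 0.35, the authors' deposited table gives unadjusted p-values of 0.0721 and 0.151 by the 2 methods and an adjusted p of 0.754. Its relative AKT2 is listed in the authors' deposited table with 0.53 on the log2 scale and an adjusted p of 0.418. MTOR (chromosome 1, 11106535 to 11262507, minus strand), the catalytic subunit of both mTOR complexes, had a log2 efficiency of −1.65 in knockdown cells in the authors' deposited table, against a derived −1.42 in control cells. Its change in the authors' deposited table, −0.23 with an adjusted p of 0.946, was the nearest to 0 of the 7.

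The 7 log2 changes had a median of −0.28 in the authors' deposited table, and 5 of the 7 lay below 0. Over all transcripts of the table the median was 0.02, and 47.3% lay below 0, with 233 transcripts listed at exactly 0. The absolute changes of the partners ran between 0.23 and 0.43, with a median of 0.35, against a median of 0.33 over all transcripts of the authors' deposited table. In size, the values of the partners were thus about those of the typical transcript. Log2 changes from the 2 methods differed by at most 0.00501 for any partner.

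**Figure D2:**
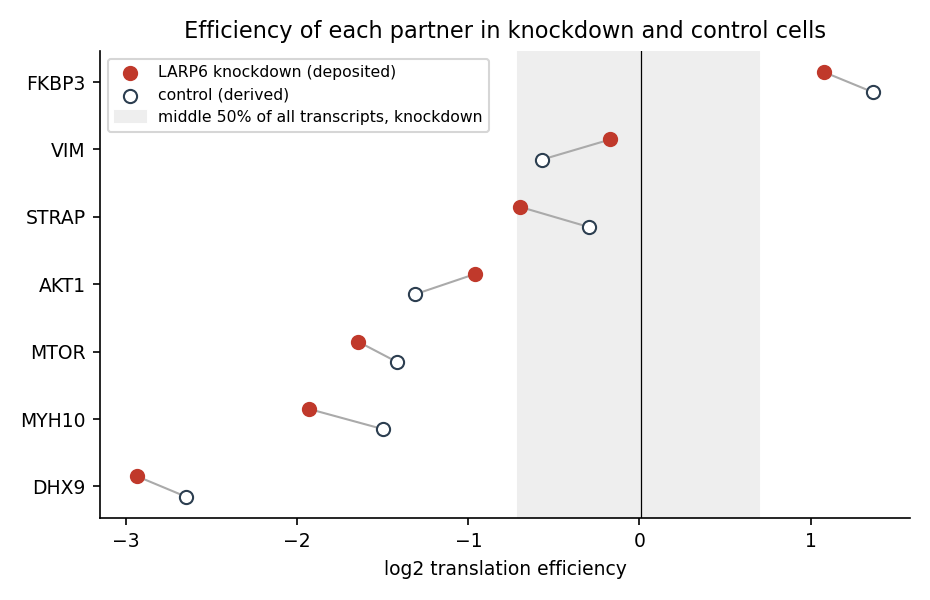
Log2 translation efficiency (x axis) of each partner in LARP6 knockdown cells (filled, deposited) and in control cells (open, derived from the deposited columns), in order of the knockdown value. The band spans the middle 50% of all transcripts in knockdown cells and the line marks their median of 0.01. FKBP3 lies to the right of the band, VIM and STRAP within it, and DHX9 farthest to the left at −2.94.

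Levels differed far more between partners than between conditions. In knockdown cells the efficiency of FKBP3 exceeded that of DHX9 16.1-fold in the authors' deposited table, whereas the largest change of a partner between conditions was 1.35-fold. A ratio between transcripts depends on scaling by length and on how shared reads were counted. Neither is stated in the sources used here, so the 16.1-fold is no measured difference in translation. The order in knockdown cells was FKBP3, VIM, STRAP, AKT1, MTOR, MYH10 and DHX9. In control cells VIM and STRAP changed places and the order was otherwise the same. With no value per library, it cannot be said which neighbours in this order differ beyond their spread. Of the 7 partners, 6 lay below the median transcript in knockdown cells, and 6 in control cells. Among all transcripts of the table, MTOR was at percentile 7.68, MYH10 at 5.19 and DHX9 at 1.65 of the knockdown efficiency. FKBP3 was at percentile 85 and VIM at 43.1.

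The transcripts behind the partners vary widely in build. FKBP3 has the shortest, with 1346 bases in 7 exons, and MTOR the longest, with 8677 bases in 58 exons. MYH10 has 7762 bases in 43 exons and DHX9 has 4240 bases in 28 exons. The 5′ UTR runs between 73 bases in FKBP3 and 413 bases in VIM, which places VIM at percentile 84.6 of the 5′ UTR lengths of protein-coding transcripts. GC content runs between 40.3% in FKBP3 and 59.7% in AKT1. These genes have between 4 and 20 annotated transcripts each, and the table represents each gene by 1 of them, so other isoforms of the partners are not described.

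**Figure D3:**
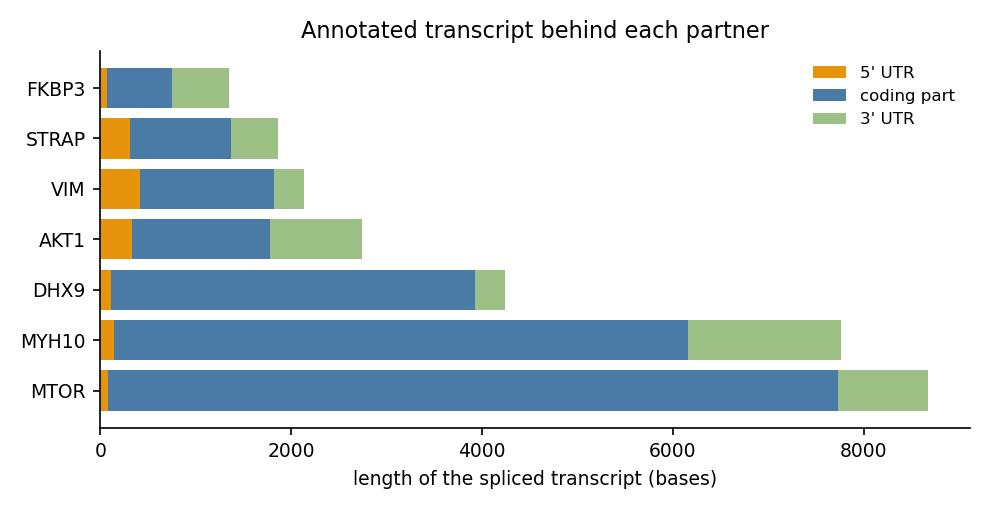
Annotated length in bases (x axis) of the 5′ UTR, coding part and 3′ UTR of the transcript behind each partner, shortest first. FKBP3 has 1346 bases and MTOR 8677 bases, and VIM has the longest 5′ UTR of the 7 with 413 bases.

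Efficiency was lower in longer transcripts over the 10551 protein-coding transcripts, with a Spearman rho of −0.43 across transcripts. This is a description of transcripts that share the same libraries, and no source used here says whether the authors scaled efficiencies by length. The log2 change showed little relation to length (rho of −0.04 across the same transcripts). To set each partner beside transcripts of like length, the protein-coding transcripts were split by length into 4 classes of nearly equal number. Within their own class, 6 of the 7 partners lay below the median knockdown efficiency. DHX9 was at percentile 1.02 of its class, MYH10 at 8.15, STRAP at 13.0, AKT1 at 13.1, MTOR at 13.3 and VIM at 35.9. FKBP3 was at percentile 70.3 of its class. Low values were not particular to the partners, whose median log2 efficiency in knockdown cells was −0.96. Among the related lists described below, this median was −1.68 for TOP messages, −0.85 for intermediate filaments and −0.82 for non-muscle myosin II. It was −0.42 for the helicases, −0.21 for the SMN complex, −0.19 for the AKT and mTOR pathway and 0.34 for FK506-binding proteins.

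**Figure D4:**
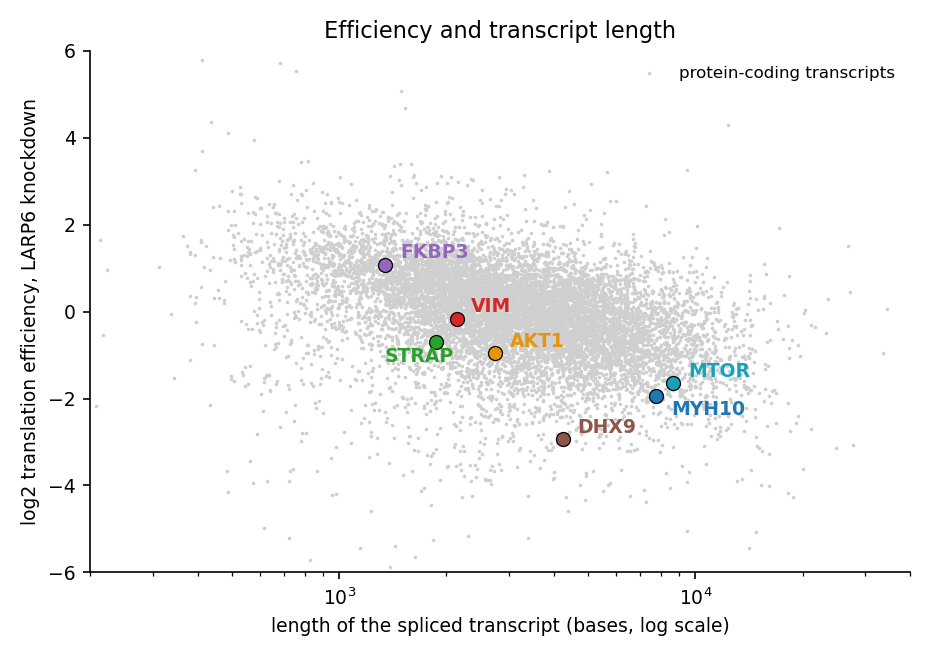
Log2 translation efficiency in LARP6 knockdown cells (y axis) against the length of the spliced transcript in bases (x axis, log scale) for protein-coding transcripts in grey, with 13 outside the axes, and the 7 partners in colour. DHX9 lies lowest of the 7 relative to transcripts of its length, and FKBP3 is the partner that lies in the upper part.

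Genes that work with the partners were examined by role. Of 10 intermediate filament proteins and linkers in the authors' deposited table, 0 rose and 1 fell, beside the 2.20% called over all transcripts, with a median of −0.12 and 7 below 0. The one that fell was PLEC, plectin, which ties vimentin filaments to other parts of the cytoskeleton, for which the authors' deposited table lists −0.75 on the log2 scale and an adjusted p of 0.0272. Its log2 efficiency in knockdown cells was −5.07 in the authors' deposited table. At an adjusted p of 0.01, PLEC was no longer called.

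Of 14 measured genes of non-muscle myosin II and its regulators, 0 were called in the authors' deposited table, with a median of −0.31 and 10 below 0, beside the 2.20% called over all transcripts. By either method's p-value alone, or at an adjusted p of 0.1, 1 of the 14 was called. These settings also called more of all 12109 transcripts. They called 457 by the first method, 342 by the second and 340 at an adjusted p of 0.1, against 266. An unadjusted p under 0.05 was reached by 2 of the 14 (14.3%) in the authors' deposited table, near the 10.3% of all transcripts. MYL9, a regulatory light chain, came nearest to the threshold, at −0.35 on the log2 scale with an adjusted p of 0.0611 by the authors' deposited table.

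The relatives of STRAP, FKBP3 and DHX9 showed no calls, beside the 2.20% called over all transcripts. In lists of this size, 0 calls does not set them apart from that share. In the SMN complex, which loads proteins onto spliceosomal RNAs, 0 of 7 measured members were called in the authors' deposited table, with a median of 0.05 and 3 below 0. GEMIN4 came nearest to the threshold, and the authors' deposited table lists it with 0.60 and an adjusted p of 0.648. Of 15 FK506-binding proteins, 0 were called in the authors' deposited table, with a median of 0.02 and 7 below 0. FKBP5, a co-chaperone of steroid receptors, came nearest, and the authors' deposited table lists it with 1.46, an unadjusted p of 0.0243 and an adjusted p of 0.347. Of 18 DEAH-box and related helicases, 0 were called in the authors' deposited table, with a median of 0.08 and 7 below 0. DHX37, a helicase of ribosome assembly, came nearest, and the authors' deposited table lists it with 0.72 and an adjusted p of 0.588. An unadjusted p under 0.05 was reached by 0 members of the SMN complex, 1 FK506-binding protein and 0 helicases in the authors' deposited table.

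In the AKT and mTOR pathway, 0 of the 47 members in the authors' deposited table rose and 1 fell, with a median of 0, 22 members below 0 and 23 above. The one that fell was DEPTOR, an inhibitory subunit of both mTOR complexes. The authors' deposited table lists it with −1.57 on the log2 scale, an efficiency 2.96-fold lower in knockdown cells, and an adjusted p of 0.000144. Its log2 efficiency in knockdown cells was −0.88 in the authors' deposited table. RPTOR and RICTOR, the subunits that define the first and the second mTOR complex, are listed in the authors' deposited table with −0.04 and 0.08, and adjusted p-values of 0.991 and 0.980 in that order. The share of called members in this pathway, 2.13%, was near the 2.20% of all transcripts.

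Messages known to carry a TOP element, which mTOR controls, were mostly above 0. Of the 17 TOP messages other than ribosomal proteins in the authors' deposited table, 2 rose and 0 fell, beside 1.07% of all transcripts called higher and 1.12% called lower. The list had a median of 0.37 with 15 members above 0, against a median of 0.02 over all transcripts. Its median log2 efficiency in knockdown cells was −1.68, against 0.01 over all transcripts. No source used here says how reads shared between transcripts were counted, so these values are uncertain. By the authors' deposited table, elongation factor EEF2 rose by 0.41 (adjusted p = 0.00137) and the ribosomal scaffold protein RACK1 by 0.46 (adjusted p = 0.00236), both as log2 changes. VIM, the partner with a pyrimidine run from base 2, had 0.40 and was called. STRAP, the partner with such a run from base 1, had −0.40 and was not called. Whether either value is related to mTOR or to a TOP element was not tested. The list was chosen with the rise of EEF2 known and is no independent evidence of a direction. Of these 17 transcripts, 1 has the pyrimidine run at base 1 or 2 of its annotated start. EIF3L had no matched start to read. In these rows the annotated start thus seldom showed the element, and other isoforms were not read. The 572 transcripts with such a run had a median of 0 in the authors' deposited table, and 13 of them (2.27%) were called, near the 2.20% of all transcripts.

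**Figure D5:**
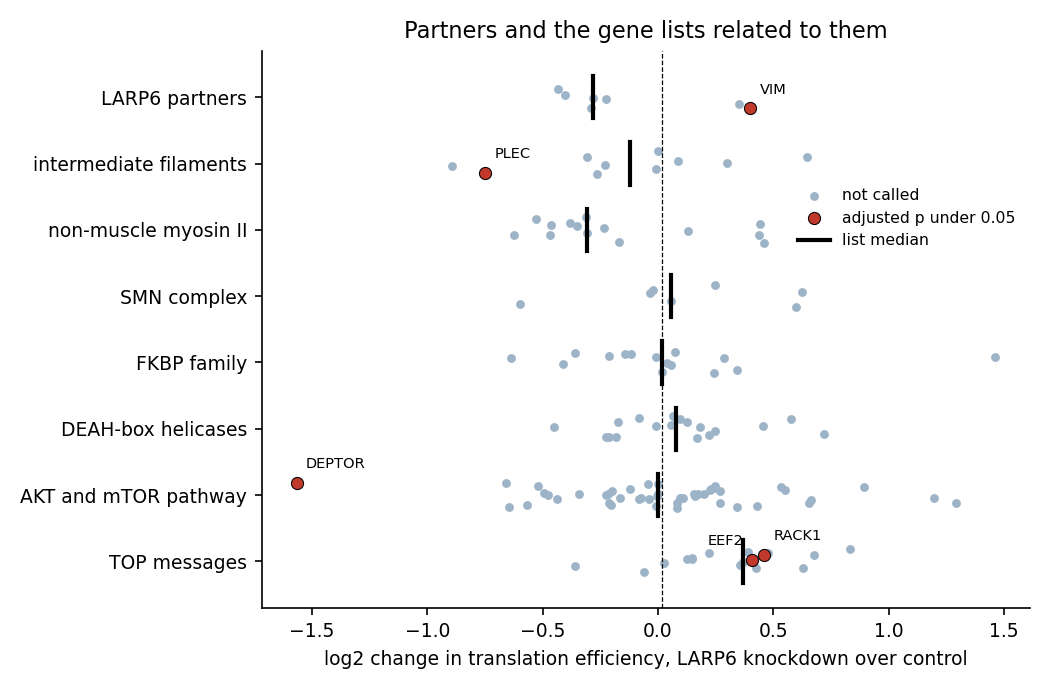
Log2 change in translation efficiency in knockdown over control cells (x axis) of each measured member of the partner list and of 7 related lists, with called transcripts in red, list medians as bars and the median of all transcripts as a dashed line. The partner median lies at −0.28 and the TOP median at 0.37, and the called transcripts are VIM, PLEC, DEPTOR, EEF2 and RACK1.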

How the data were processed

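Hepatic stellate cells with LARP6 or control silencing RNA were profiled by RNA-seq and ribosome profiling, in 8 libraries (4 groups of 2). Reads were processed with cutadapt and Bowtie on hg38 or GRCh38, per the submitters' processing notes, which give no versions. The counter, the handling of reads with several matches and the comparison program are not stated in the sources used here.

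The deposited table is the authors' comparison of 12109 transcripts and holds no value per library. Per the file headers, the deposited values comprise 3 log2 changes of translation efficiency (2 methods and a final one), the log2 efficiency in knockdown cells, and p-values by method, final and adjusted. The final log2 change and p-value that the authors deposited are those of the method with the larger p-value in 12109 of 12109 transcripts (relative tolerance 1e-09). A call is an adjusted p under 0.05 in that table, and no test was added to it. The cell type marker lists are given by counts only. Depth is unknown, and SDs or intervals could not be computed. Nothing in the labels states that replicates came from separate cultures, so the spread behind the authors' p-values may be technical.

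Control efficiencies were obtained by subtracting the log2 change of the second method from the log2 efficiency in knockdown cells. Transcripts were matched to GENCODE release 29 on GRCh38 by the last 6 digits of the identifier. Where several annotated transcripts shared those digits, the gene symbol had to match as well. A lone transcript with those digits was accepted whatever its symbol, so some matches may be wrong. In all, 11581 matched, including all 7 partners, and 528 did not. Lengths, GC content, coordinates and first bases were taken from that release with pandas 2.3.3 in Python 3.11.15. The Benjamini-Hochberg adjustment used for the alternatives was tested on simulated data. Settings tried were each method alone, other thresholds, protein-coding or named transcripts only, another centring and leaving out each partner.

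The partners and the related lists were chosen with earlier results of these data known. The genes named are the 7 partners, LARP6 and the 3 collagen chains, and in each list related to a partner its called members or, where none was called, the member with the smallest adjusted p. MYH9, AKT2, RPTOR and RICTOR, as the nearest relatives or complex subunits, the overlapping gene and pseudogene, and the unmeasured markers LRAT and desmin are named outside that rule, after their values were seen.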

Additional observations from a re-analysis of the deposited data

How the results depend on the processing

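No paired analysis was possible because the deposited table gives no value per library, and for the same reason no replicate could be left out. The 7 partners were recomputed under 9 settings each: the p-value of either method alone, adjusted p of 0.01 and 0.1, unadjusted p of 0.05, protein-coding or named transcripts only, the log2 change of either method, and log2 changes minus the median over all transcripts. The first 6 settings keep the log2 change, and in those 42 cases each partner stayed on its side of the threshold. The last 3 keep the p-value, and in those 21 cases each partner kept its sign. This could not have come out otherwise and is no test. The methods differed by at most 0.00501 and the centring moved values by 0.02, against a smallest absolute change of 0.23. VIM ran between 0.39 and 0.40 on the log2 scale, and 1 partner was called under each threshold and p-value. The median over partners ran between −0.29 and −0.25 when each partner was left out in turn. The related lists held 10, 14, 7, 15, 18, 47 and 17 measured members, in the order described above. Called members of these lists together numbered 4, against 11 at an unadjusted p of 0.05. They numbered 5 by either method's p-value alone or at an adjusted p of 0.1, and 3 at an adjusted p of 0.01. Over all transcripts the number called moved the same way. It was 266 (2.20%) in the main setting, 1246 (10.3%) at an unadjusted p of 0.05 and 184 at an adjusted p of 0.01. It was 457 and 342 by the p-value of the first and the second method alone, and 340 at an adjusted p of 0.1. Depth is unknown, so it cannot be said which partners were too shallow to be called.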
